A study of Danio rerio with 36 samples.

Results

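CpG-dense windows that are methylated in wild-type sperm were examined, that is, stretches of 1 kb in the zebrafish genome with at least 40 CpG dinucleotides. They were chosen by 3 criteria. A window had to hold at least 40 CpGs listed in the table of G2 sperm, whether or not these had a value, at least 5 of them had to have a value in all 3 wild-type males of that table, and the mean of these males had to be at least 80%. Of 1338131 windows with a listed CpG, 71818 were this dense, 41453 of these had enough values, and 34544 were methylated at 80% or more and are called dense methylated windows in the following. The 714983 windows that met the same criteria for values and level but had under 40 listed CpGs are called the other windows. The choice rests on measured values of the wild-type G2 sperm, so that the level of these 3 males is a description and is not tested.

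Levels were determined by whole genome bisulfite sequencing, which reads unmethylated cytosines as thymines, in 18 fish of mixed background strain, with 3 fish in each of 6 groups. The groups were dnmt1m/m and dnmt1+/+ whole bodies at 18 dpf (days post fertilization), sperm of G2 dnmt1m/m and G2 dnmt1+/+ males, and G4* and G4+ sperm. The dnmt1m/m fish are homozygous for a viable hypomorphic missense allele. The G4* and G4+ males descend from dnmt1 mutants and are both genotypically wild type, and they differ in that G4* males transmit impaired larval T cell development to their offspring whereas G4+ males do not. The labels of the G2 sperm name generation 1, and the paper's term is kept here. Whole body is a mixture of tissues, so that a level is an average over its cell types. Nothing in the labels says that fish of a group come from separate clutches, and p-values therefore measure the spread between these fish. All values are percentages of reads methylated, differences are in percentage points, and coordinates are those of the deposited danRer10 tables.

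Dnmt1 is the enzyme that keeps CpG methylation in place through cell division, by methylating CpGs that carry the mark on only one of their strands. Methylated cytosines in CpG dinucleotides mutate readily to thymine, so that methylated vertebrate DNA is generally poor in CpGs, whereas CpG islands, which often lie at promoters, are usually kept free of methylation. A window that is both rich in CpGs and methylated thus departs from this general pattern.

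The dense windows formed 2 distinct classes in wild-type G2 sperm. Of the 41453 with values, 5589 had a mean under 10%, 1320 lay from 10% to under 80%, and the remaining 34544 are the dense methylated windows, with a median of 97.2%. A further 30365 dense windows had under 5 usable CpGs and could not be placed. The dense methylated windows held between 40 and 156 listed CpGs with a median of 47, and the other windows had a median of 17. The number of CpGs valued in all 3 wild-type males ranged from 5 to 90 with a median of 20. Just inside the criterion for density, windows with 40 CpGs had a median difference between genotypes of −22.3 percentage points in whole body, and those just outside, with 39 CpGs, had −22.4. By level, the 58 windows from 80% to under 81% had −17.7 in whole body, and the 44 from 79% to under 80% had −17.9.

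**Figure D1:**
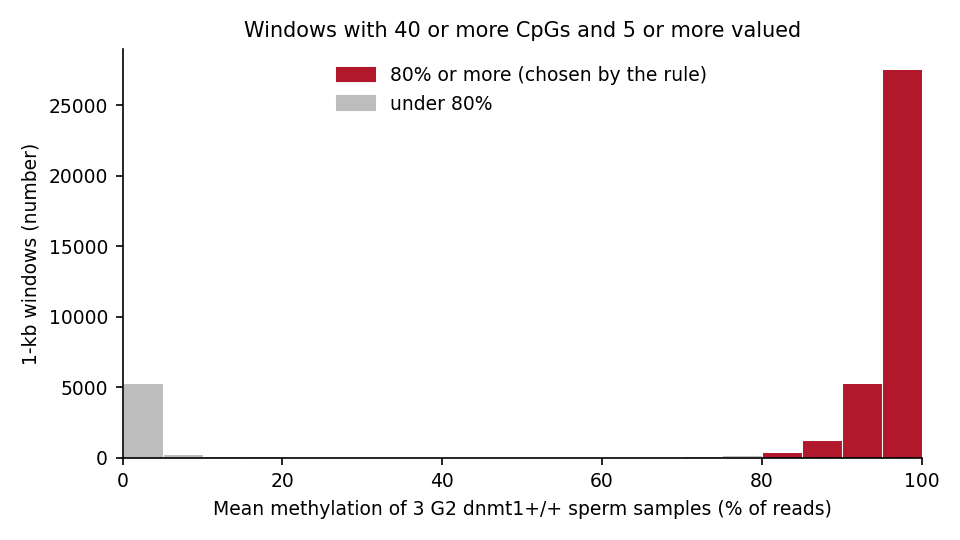
Number of 1-kb windows with at least 40 listed CpGs (vertical axis) by their mean methylation in the 3 G2 dnmt1+/+ sperm samples (horizontal axis, bins of 5 percentage points), with the windows chosen by the rule in red. The windows pile up at both ends, with 27590 at 95% or more and 5291 under 5%.

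The read number behind a CpG is not used here, so the depth is unknown, and the share of listed CpGs that kept a value after the authors' filters stands in its place. In the 18 fish, this share was between 39.4% and 70.3% in dense methylated windows and between 54.2% and 83.2% in the other windows. It was lowest in both sets in the first dnmt1+/+ body. In whole body the share went with genotype, at 55.1%, 53.7% and 54.7% in dnmt1m/m and 39.4%, 47.4% and 40.95% in dnmt1+/+ fish for dense methylated windows. For the other windows it was 66.8%, 64.9% and 62.1% in dnmt1m/m and 54.2%, 61.8% and 59.7% in dnmt1+/+ bodies. The share and the genotype cannot be told apart there, and the effect of the share on the comparison of genotypes was not tested. Fish of a group did not share values, as any pair of fish in a comparison had the same level in at most 0.439% of the dense methylated windows.

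In whole body, dense methylated windows lost methylation in the mutants, but less of it than the other windows did. The comparison uses the CpGs with a value in all 6 bodies, which left 21713 of the 34544 dense methylated windows with at least 5 such CpGs, while 12831 could not be tested. Their median level was 71.2%, 71.8% and 71.4% in the dnmt1m/m bodies, against 92.3%, 92.1% and 92.0% in the dnmt1+/+ bodies. The 3 mutants lay close together and far below the 3 wild-type fish. The other windows had 57.2%, 57.3% and 57.2% in dnmt1m/m bodies, against 88.3%, 88.0% and 88.0% in dnmt1+/+ bodies. As group values, these are 71.5% ± 0.333 in mutants and 92.1% ± 0.150 in wild type for dense methylated windows, and 57.2% ± 0.0887 in mutants and 88.1% ± 0.195 in wild type for 343436 other windows (SD, n = 3 fish). Dense methylated windows were thus more methylated than the other windows in both genotypes, although both sets met the same criterion in wild-type sperm.

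The median difference over windows was −20.1 percentage points in dense methylated and −29.3 in the other windows. Mutants retained 78.0% of the wild-type level in the median dense methylated window and 65.7% in the median other window. For each mutant body against the mean of the wild-type bodies, the loss of dense methylated windows was smaller than that of the other windows by 8.94, 9.46 and 9.16 percentage points, with an SD of 0.257 over the 3 mutants. The gap between the sets exceeds the spread between fish by far. It was not tested, because the windows were chosen with results of these fish known.

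**Figure D2:**
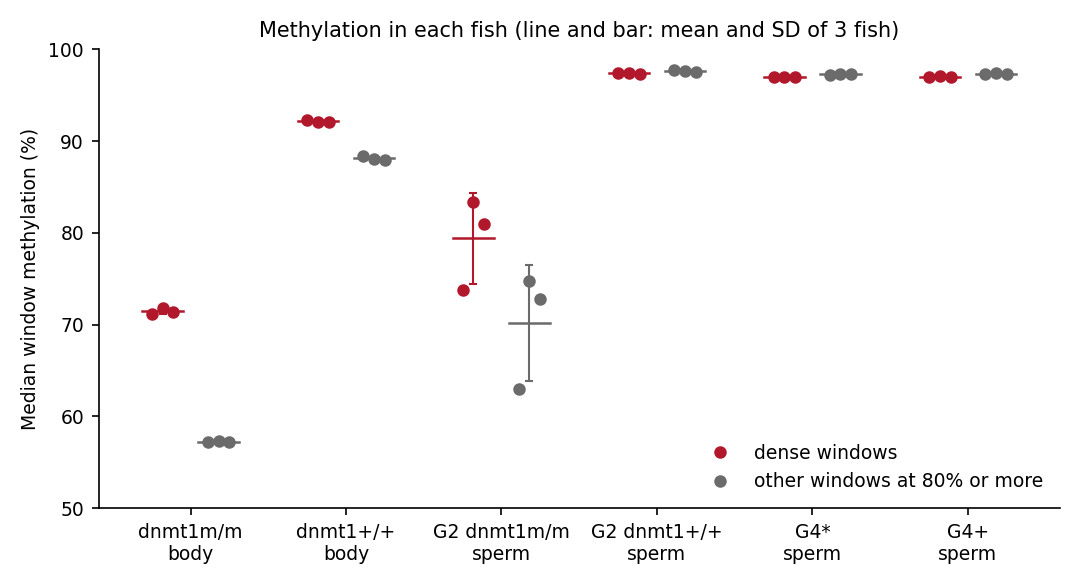
Median methylation of 1-kb windows (vertical axis, percent, starting at 50%) in each of the 18 fish, for dense methylated windows in red and for the other windows at 80% or more in grey, with the mean and SD of the 3 fish of a group as a line and bar. Mutant bodies sit at 71.2% to 71.8% in dense methylated and at 57.2% to 57.3% in the other windows, whereas all G4 males are at 96.9% or more in both sets.

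For single windows, limma was applied to the logit of the window means, over all windows of the genome with at least 5 usable CpGs. A call required a false discovery rate (FDR) below 5% together with a difference no smaller than 20 percentage points. Of the dense methylated windows, 11024 of 21713 (50.8%) were called lower in dnmt1m/m bodies, against 81.7% of all tested windows. Of the other windows, 300988 of 343436 (87.6%) were called lower. In the higher direction, 0 dense methylated windows were called by limma, against 0.0062% of all tested windows, although 21519 had an unadjusted p under 0.05, nearly all for lower levels. All 3 mutants lay below all 3 wild-type bodies in 21396 dense methylated windows (98.5%), against 96.6% of all tested windows and 99.5% of the other windows. When no minimum difference was required, 99.1% passed the FDR in the lower direction, against 97% of all tested windows and 99.7% of the other windows. By both counts, the dense methylated windows thus lay slightly below the other windows. The criterion of 20 percentage points lies close to the median loss of dense methylated windows, so that the share called depends on it directly.

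The comparison was repeated within narrow ranges of the wild-type level. Where wild-type G2 sperm was at 95% to 100%, the median difference in whole body was −20.3 percentage points in 17534 dense methylated and −29.5 in 291868 other windows. At 90% to 95% it was −19.6 in dense methylated and −28.4 in the other windows, at 85% to 90% −18.6 in dense methylated and −28.3 in the others, and at 80% to 85% −19.02 in dense methylated and −27.9 in the others. The gap was therefore present in all 4 ranges of the sperm level. In whole body the sets also differ in their own wild-type level, and windows were therefore also matched on it. At a wild-type body level of 70% to 80%, the difference was −23.5 percentage points in dense methylated and −32.1 in the other windows, at 80% to 85% it was −22.6 in dense methylated and −32.8 in the others, and at 85% to 90% it was −21.5 in dense methylated and −30.9 in the others. At 90% to 95%, the difference was −20.1 percentage points in dense methylated and −26.5 in the other windows, and at 95% to 100% it was −17.6 in dense methylated and −21.4 in the other windows. Dense methylated windows lost less in all 5 ranges, and the gap was smallest at the highest body level. The matching on body level was chosen after the values were seen. The share of CpGs with a value, which also differs between the sets, was held constant in the same way. Where under 40% of the listed CpGs were valued in wild-type G2 sperm, the body difference was −20.2 percentage points in dense methylated and −25.6 in the other windows, and where 80% or more were valued it was −20.5 in dense methylated and −30.0 in the other windows. Among dense methylated windows, the body difference thus hardly moved with this share. In the other windows it was smaller where few CpGs were valued, so that the gap between the sets was smaller there but kept its direction.

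In G2 sperm, where the wild-type males chose the windows, the values are a description. The median level of 29598 dense methylated windows was 73.8%, 83.4% and 81.01% in dnmt1m/m sperm, against 97.4%, 97.4% and 97.3% in dnmt1+/+ sperm. The first mutant male was the lowest, and the 3 mutants together varied more than the wild-type males, at 79.4% ± 4.97 in dnmt1m/m and 97.4% ± 0.0438 in dnmt1+/+ sperm (SD, n = 3). The other windows were at 70.2% ± 6.28 in dnmt1m/m and 97.6% ± 0.0756 in dnmt1+/+ sperm (SD, n = 3). The median difference was −17.3 percentage points in dense methylated and −26.8 in the other windows, and 10297 dense methylated windows (34.8%) passed the call for a lower level, against 71.4% of all tested windows. In the 3 mutant males, the loss of dense methylated windows was smaller than that of the other windows by 11.2, 8.94 and 8.50 percentage points. The first mutant male, with the largest loss in both sets, also had the largest gap between them.

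Loss was graded with the number of CpGs in a window and showed no step at 40. In whole body, the median difference was −35.3 percentage points in windows with 5 to 9 listed CpGs, −31.2 with 10 to 19, −27.2 with 20 to 29, −23.9 with 30 to 39, −21.5 with 40 to 49, −19.6 with 50 to 59, and −16.6 with 60 or more. Each of the 3 mutant bodies gave the same order, from −35.2, −35.4 and −35.2 in the sparsest windows to −16.8, −16.2 and −16.8 in the densest. The body level of wild-type fish increased along the same series, with a median of 85.5% in the sparsest and 93.1% in the densest windows, and its part in the series was not tested. The share of windows called lower was 59.6% with 40 to 49 CpGs, 47.0% with 50 to 59, and 24.9% with 60 or more. In G2 sperm, described only, the differences ran from −35.0 percentage points in the sparsest to −15.5 in the densest windows. When the series was restricted to windows at 97% to 98% in wild-type G2 sperm, the body differences were −35.5 with 5 to 9, −24.3 with 30 to 39, −21.8 with 40 to 49, and −17.2 with 60 or more CpGs. The gradient thus held at a nearly constant sperm level.

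**Figure D3:**
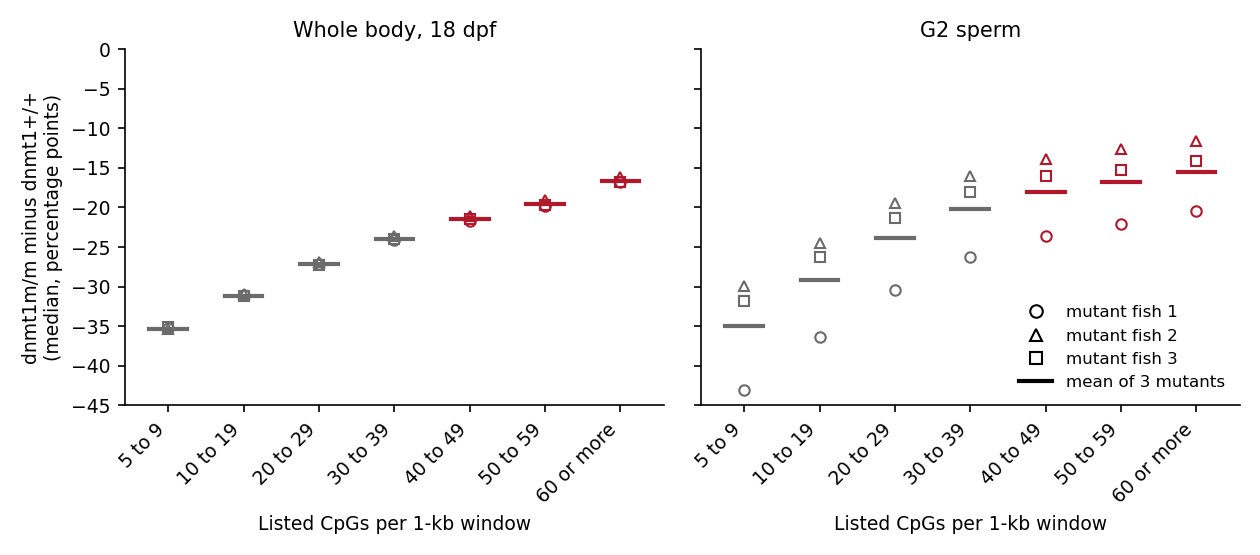
Median difference between dnmt1m/m and dnmt1+/+ fish in percentage points (vertical axis) by the number of listed CpGs per 1-kb window (horizontal axis), in whole body and in G2 sperm, with 1 symbol per mutant fish and the mean of the mutants as a line, dense methylated windows in red. The body loss shrinks from −35.3 percentage points with 5 to 9 CpGs to −16.6 with 60 or more.

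The dense methylated windows were also set against their own neighbourhood. Most of them, 24103, had no other dense methylated window beside them. In these isolated windows, with a median of 46 CpGs, the difference in whole body was −20.8 percentage points. Directly adjacent windows of at least 80% in wild-type sperm, with a median of 22 CpGs, had −25.0 on either side, and windows at a distance of 5 kb, with 19 CpGs, had −28.0 on the left and −28.1 on the right. In G2 sperm, described only, the isolated windows had −17.6, the adjacent ones −21.2 and −21.3, and those at 5 kb −24.4 and −24.3. The loss was thus smallest at the dense window, and the gap had largely faded at 2 kb, where whole body showed −27.5 and −27.4 percentage points. Because isolated windows were taken, adjacent windows at this level hold under 40 CpGs by choice. The profile is therefore a description and no separate support for the grading with CpG number.

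**Figure D4:**
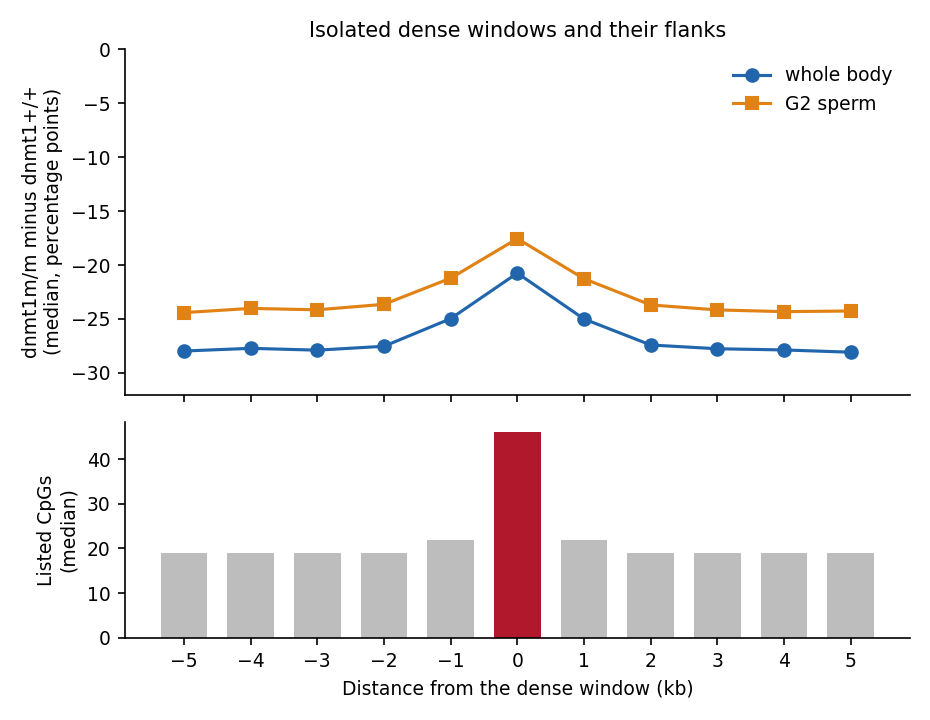
Upper plot, median difference between dnmt1m/m and dnmt1+/+ fish in percentage points (vertical axis) against the distance in kb from isolated dense methylated windows (horizontal axis), in whole body and G2 sperm. Lower plot, median number of listed CpGs at the same distances. The loss is smallest at distance 0, at −20.8 in whole body and −17.6 in G2 sperm, where the median CpG number is 46.

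At the level of single CpGs, those with a close neighbour lost less methylation. In dense methylated windows, CpGs whose nearest listed CpG was 2 to 4 bases away had a mean of 73.3% in dnmt1m/m and 91.7% in dnmt1+/+ bodies, a difference of −18.4 percentage points over 101670 CpGs. The difference was −19.2 at 5 to 9 bases, −21.1 at 10 to 19, −23.8 at 20 to 39, and −26.1 at 40 to 99 bases. CpGs of the other windows lost more at each of these distances, with −23.9 at 2 to 4 bases and −33.6 at 40 to 99. At the same distance to the nearest CpG, dense methylated windows therefore still differed from the other windows, by each of the 3 mutant bodies. At 2 to 4 bases, the mutants had −18.7, −18.0 and −18.5 in dense methylated windows, and −23.9, −23.7 and −24.1 in the other windows.

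The CpGs of some dense windows were spaced at a regular distance, and the sequence behind this was not examined. For each window the commonest distance between listed CpGs, from 10 to 400 bases, was found. In 322 dense methylated windows (0.932%), at least 80% of the CpGs had a partner at that distance, against 0.160% of the windows with 30 to 39 CpGs at the same level. Spacings of 74, 20, 27 and 54 bases were the most frequent among them, in 19, 18, 17 and 16 windows, and 14 windows had a spacing of 177 bases. Chromosome 4 held 47 of the 322. The body difference was −16.1 percentage points in the 195 of them that could be tested, −18.4 where 40% to 80% of CpGs had a partner, and −20.3 where fewer had. The share called lower was 30.8%, 41.0% and 51.8% in the same order. The number of CpGs, with which the loss was graded, was not held constant in this series. In the window with the most CpGs, 156, for instance, 95.5% of them had a partner at the commonest spacing.

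Of the 6 windows chosen for the strongest regularity, 4 lie on chromosome 4. At 35581001 to 35582000 of chromosome 4, CpGs recurred every 177 bases, and the levels were 58.7%, 64.0% and 59.9% in dnmt1m/m bodies, against 88.0%, 87.9% and 86.8% in dnmt1+/+ bodies. The difference was −26.7 percentage points (limma, adjusted p = 2.54e-05) over 5 usable CpGs, larger in size than in the median dense methylated window. At 43969001 to 43970000 of chromosome 11, which the deposited tables list at a distance of −4524 bases from il1rapl1b, a relative of the interleukin 1 receptor accessory proteins, CpGs recurred every 11 bases. The levels there were 42.6%, 51.7% and 52.7% in dnmt1m/m bodies, against 88.9%, 90.2% and 88.7% in dnmt1+/+ bodies. The difference was −40.3 (limma, adjusted p = 1.95e-05) over 9 usable CpGs of 85 listed. At 60572001 of chromosome 4, it was −27.9 over 15 usable CpGs. The windows at 1614001 of chromosome 3 and at 42280001 and 71202001 of chromosome 4 could not be tested in whole body. A regular spacing thus occurred together with losses well above the median in single windows.

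Of the 6 windows with the most CpGs, those tested in whole body kept much of their methylation at the CpGs usable there. These numbered 19 of 156 on chromosome 13, 9 of 127 and 10 of 149 on chromosome 24, and 7 of 131 on chromosome 3. Most listed CpGs of these windows were thus not measured in all 6 bodies. The window with the most, 156 CpGs at 49337001 to 49338000 of chromosome 13, had 86.4%, 91.6% and 86.7% in dnmt1m/m bodies, against 98.9%, 96.0% and 98.3% in dnmt1+/+ bodies. The mutants lay below all wild-type fish, and the difference came to −9.50 percentage points (limma with an adjusted p = 0.000333), which is under the minimum difference of a call. On chromosome 24, 2 adjacent windows in cdk13, a cyclin-dependent kinase of transcription, held 127 CpGs (989001 to 990000) and 149 CpGs (990001 to 991000). The first had 84.3%, 85.8% and 77.9% in dnmt1m/m bodies, against 98.2%, 98% and 96.97% in dnmt1+/+ bodies. The second had 81.7%, 86.6% and 78.9% in dnmt1m/m bodies, against 98.6%, 99.1% and 97.9% in dnmt1+/+ bodies. The differences were −15.1 (limma, adjusted p = 2.47e-05) and −16.2 percentage points (limma, adjusted p = 1.96e-05). In G2 sperm the 2 neighbours differed, with −3.53 in the first and −18.3 in the second window. At 10376001 to 10377000 of chromosome 3, with 131 CpGs, the levels of 76.1%, 74.6% and 91.1% in dnmt1m/m bodies overlapped those of 84.0%, 89.1% and 89.2% in dnmt1+/+ bodies (limma, adjusted p = 0.215). The windows at 46123001 of chromosome 13, with 134 CpGs, and at 70080001 of chromosome 7, with 131 CpGs, could not be tested in whole body.

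The 6 dense methylated windows with the largest body loss are given with the values that chose them. At zbtb20 (chromosome 5, 66856001 to 66857000), which encodes a zinc finger transcription factor, 26.9%, 15.3% and 14.2% were found in dnmt1m/m bodies, against 86.8%, 84.7% and 82.9% in dnmt1+/+ bodies. The difference in sperm was smaller there, with 74.5%, 80.1% and 81.8% in G2 dnmt1m/m, against 97.5%, 98.5% and 97.9% in G2 dnmt1+/+ sperm. A window at zbtb16a (chromosome 21, 23134001 to 23135000), another zinc finger transcription factor gene, had 26.04%, 39.9% and 24.02% in dnmt1m/m bodies, against 87.6%, 78.7% and 76.3% in dnmt1+/+ bodies. Its sperm levels were 71.8%, 81.6% and 82.6% in G2 dnmt1m/m, against 99.03%, 99.1% and 98.7% in G2 dnmt1+/+ males. Both windows rest on 5 usable CpGs in whole body, against 13 at zbtb20 and 12 at zbtb16a in sperm. The 2 tissues are thus not compared at the same CpGs. In both windows the mutants of either tissue lay below the wild-type fish. At usp32 (chromosome 15, 23918001 to 23919000), a ubiquitin-specific protease gene, the loss was large in both tissues, with 44.2%, 47.3% and 41.1% in dnmt1m/m bodies, against 99.2%, 96.2% and 93.1% in dnmt1+/+ bodies. The other 3 lie in ccnf, which encodes cyclin F (chromosome 3, 12432001 to 12433000), at 43211001 of chromosome 3, and at 15366001 of chromosome 7, with differences of −63.2, −53.7 and −53.9. In ccnf, single fish of both genotypes stood apart, with 5.69%, 48.5% and 4.09% in dnmt1m/m bodies, against 93.9%, 55.6% and 98.3% in dnmt1+/+ bodies.

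At the other end, 6 windows had the smallest body loss, with differences between 1.12 and 23.2 percentage points in the higher direction, of which none passed the FDR by limma (adjusted p between 0.311 and 0.868). At abhd8a (chromosome 2, 54096001 to 54097000), a gene for an abhydrolase domain protein, the bodies had 73.2%, 55.9% and 2.35% in dnmt1m/m, against 55.0%, 2.0% and 4.90% in dnmt1+/+ fish, over 5 usable CpGs. The fish of both genotypes overlapped and spanned most of the scale. The tripartite-motif-related gene btr30 (chromosome 19, 48394001 to 48395000) had 87.0%, 80.98% and 83.4% in dnmt1m/m bodies, against 87.2%, 82.2% and 76.1% in dnmt1+/+ bodies. Here all fish were alike over 5 usable CpGs. The sperm, over 12 usable CpGs, had 79.3%, 87.9% and 85.6% in G2 dnmt1m/m, against 93.6%, 99.2% and 94.3% in G2 dnmt1+/+ males.

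Loss in whole body and loss in sperm were related over the 21160 dense methylated windows measured in both, with a Pearson r of 0.433 and a Spearman rho of 0.415. For 322312 other windows, r was 0.541 and rho 0.532. Windows are not replicates, and the pairs share CpG number and base composition, so the values are a description. The body loss was the larger in 64.9% of dense methylated and in 58.5% of the other windows, each tissue being averaged over its own usable CpGs. This order depended on the mutant male. Over the dense methylated windows tested in each tissue, the median differences were −22.7, −13.2 and −15.6 in mutant sperm and −20.3, −19.7 and −20.2 in mutant bodies. The first mutant male thus lost more than each mutant body, and the other mutant males lost less. Windows with all mutant bodies above and all mutant sperm samples below their wild-type counterparts were rare. They numbered 0 of 21160 dense methylated and 4 of 322312 other windows (0.00124%). At so low a share, the 0 does not set the dense methylated windows apart.

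Dense methylated windows lay on all 25 chromosomes. Among windows at the same level they made up between 3.74% on chromosome 24 and 6.99% on chromosome 4, with 6.25% on chromosome 22. The body difference varied little between chromosomes, between −19.5 on chromosome 12 and −20.5 percentage points on chromosome 18. Of all dense methylated windows, 10441 (30.2%) had another directly beside them, with a body difference of −19.1 percentage points in these and of −20.8 in isolated ones. The 2 longest runs covered 10 kb each. A run on chromosome 4 (42282001 to 42292000) had 435 CpGs with a commonest spacing of 20 or 40 bases and no window that could be tested in whole body. The run on chromosome 7 (3380001 to 3390000), with 584 CpGs and the gene si:ch211-285c6.3, had a median difference of −20.7 percentage points in its 8 tested windows.

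Gene names come from the authors' deposited tables of differentially methylated regions (DMRs), which give the nearest gene of each interval. A window without a DMR therefore has no gene here, and windows with one were in effect chosen for their loss in G2 sperm. Of dense methylated windows, 21041 (60.9%) overlapped a G2 DMR, against 43.6% of the other windows, and 11174 (32.3%) lay within a gene, against 27.1% of the other windows. Beside this larger overlap, 34.8% of dense methylated and 77.0% of the other windows were called lower in G2 sperm, against 71.4% of all tested windows. Without the minimum difference, 98.2% of dense methylated and 99.5% of the other windows were lower at the FDR. These shares are a description, because the wild-type G2 males chose the windows. The genes with the most dense methylated windows were loxl3b (37), a lysyl oxidase-like gene, dhx36 (25), a helicase gene, iqsec3a (25), a guanine nucleotide exchange factor gene, CSMD3 (23), which encodes a large membrane protein, nlgn3a (23), a neuroligin gene of synapses, and ebf1b (21), a transcription factor gene. In dhx36, the 24 testable windows had medians of 79.95% in dnmt1m/m and 95.9% in dnmt1+/+ bodies, a median difference of −15.7. In CSMD3, the 18 testable windows had 68.7% in dnmt1m/m and 92.0% in dnmt1+/+ bodies, a median difference of −23.6. In the 6 genes, the median differences lay between −23.6 and −15.7 percentage points, around the value of −20.1 over all dense methylated windows.

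Of 12 gene groups set by symbol, zinc finger genes (znf and zbtb) held the most dense methylated windows, 160 in 73 genes, or 1.43% of the dense methylated windows within genes, against 1.008% of the other windows within genes. Their body difference was −20.1 percentage points, and 68 of 135 tested were called lower, beside −20.2 and 4562 of 8956 in all genes. Of the other windows of zinc finger genes, 1104 of 1370 were called lower, and of all tested windows 81.7% were. In znf609a, 9 windows had a median difference of −14.6, and in znf536, 8 windows had −26.02, with a wild-type body level of 69.8%. Collagen genes held 50 windows in 16 genes, with a difference of −19.3 and 19 of 42 called lower, against 538 of 590 of their other windows. Cadherin genes, for cell adhesion, held 29 windows with −23.7 and 21 of 25 called lower, against 706 of 780 of their other windows. Protocadherin genes held 22 with −23.9 and 15 of 19 called lower, against 370 of 395 of their other windows. Notch and laminin genes held 25 windows with −17.3 and 9 of 20 called lower, against 221 of 259 of their other windows. The 25 include 9 windows of the receptor gene notch1b, with −15.9. Ribosomal protein genes held 8 windows, with −30.2 and 5 of 6 called lower, against 76 of 93 of their other windows. NLR genes, which encode innate immune receptors, held 3 windows with 1 of 3 called lower, against 2 of 2 of their tested other windows. The titin and obscurin group held 1 with 0 of 1 called lower, against 49 of 50 of its tested other windows. GIMAP, mucin, histone and hox genes held 0 dense methylated windows, and of these groups mucin had 37, histone 14, hox 2 and GIMAP 0 of the other windows.

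In G4 sperm, methylation of the dense windows was nearly as high as in wild-type G2 sperm. Over 31083 dense methylated windows, the median level was 96.94%, 97.01% and 97% in G4* males and 96.99%, 97.05% and 96.95% in G4+ males, or a mean of 96.98% ± 0.0351 for the G4* and of 97% ± 0.0511 for the G4+ males (SD, n = 3). The males of both groups overlapped, and the median difference between G4* and G4+ was −0.00287 percentage points. The other windows were at 97.3% ± 0.0403 in sperm of G4* and 97.3% ± 0.0529 in that of G4+ males (SD, n = 3).

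Each G4 group was also compared with the G2 dnmt1m/m males. These comparisons share the mutant males, and the generation cannot be told apart from any other difference between the 2 data sets. In 29264 dense methylated windows, G4+ males had a median of 97.05%, 97.09% and 97.01%, against 74.1%, 83.6% and 81.2% in G2 dnmt1m/m males. The median difference was 16.8 percentage points in dense methylated and 25.97 in the other windows. By limma, 9127 dense methylated windows (31.2%) were higher in G4+ sperm, against 69.4% of all tested windows. In the lower direction, 12 (0.041%) were called, against 0.0279% of all tested windows and 0.0111% of the other windows. All G4+ males lay above all G2 mutants in 97.6% of dense methylated windows, against 95.1% of all tested windows and 98.8% of the other windows. For G4* males, the median difference was 16.8 in 29155 dense methylated and 26.1 in the other windows, with 9187 (31.5%) higher, against 69.8% of all tested windows. Here 14 (0.048%) were lower, against 0.0319% of all tested windows and 0.0125% of the other windows. As in whole body, the share called depended on the minimum difference. The first G2 mutant male decided much of it, and without this male 17.2% were higher in G4+ and 17.3% in G4* sperm.

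The gain can be expressed as the share of the G2 loss that was regained, that is, the difference between G4 and G2 dnmt1m/m sperm divided by that between G2 dnmt1+/+ and G2 dnmt1m/m sperm. The level used by the rule enters this value, which is therefore a description. In the 24717 dense methylated windows that had lost at least 10 percentage points, the median share was 97.9%, and in 491054 other windows it was 98.6%. The single males gave 98.4%, 98.6% and 98.6% in G4* and 98.6%, 98.8% and 98.4% in G4+ sperm for dense methylated windows. Windows that had lost 40 percentage points or more regained a median of 93.8% in 404 dense methylated and 98.3% in 51130 other windows. Those that had lost 10 to 20 percentage points regained 98.02% in dense methylated and 98.6% in the other windows.

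A small number of dense methylated windows remained low in G4 sperm. In 84 of 27947 (0.301%), the mean of the 6 G4 males was at least 20 percentage points below that of G2 dnmt1+/+ sperm, against 0.344% of the other windows. In 43 of the 84 (51.2%), the G4 males spanned at least 40 percentage points, so that the mean stood for unlike males. The same held for 833 of the 1734 other windows that remained as low (48.0%), which is a similar share. Over all 31083 dense methylated windows, such a span among the 6 G4 males was found in 74 (0.238%), against 0.305% of the other windows. Of the 444 levels in these 74 windows, 36 were under 20%, 120 from 40% to 60% and 158 at 80% or more.

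The 6 least regained windows show these levels. At oxtrl (chromosome 6, 46667001 to 46668000), an oxytocin receptor-like gene, the levels were 88.7%, 88.6% and 98.9% in G4* males and 0.181%, 53.7% and 0.347% in G4+ males. In G2, the males had 16.8%, 78.3% and 40.01% in dnmt1m/m, against 97.6%, 97.2% and 97.9% in dnmt1+/+ sperm. The G4 groups did not overlap and differed by 74.0 percentage points, but the window did not pass (limma, adjusted p = 0.621), and 1 G4+ male stood between the others. In a window 3105 bases from IGLON5, a cell adhesion gene (chromosome 16, 50963001 to 50964000), 1.47%, 53.5% and 67.9% were found in G4* and 2.66%, 47.8% and 1.82% in G4+ males, and 2.07%, 3.93% and 35.6% in G2 dnmt1m/m, against 98.3%, 98.03% and 98.4% in G2 dnmt1+/+ sperm. At abhd8a, G4* males had 0.144%, 58.7% and 68.9% and G4+ males 0.445%, 57.0% and 64.2%. Near acot9.1, an acyl-CoA thioesterase gene (chromosome 24, 21813001 to 21814000), G4* males had 2.65%, 51.8% and 2.56% and G4+ males 0.405%, 51.9% and 0.00%, all below the G2 dnmt1m/m males at 54.2%, 62.2% and 64.1%. In these 3 windows males of both groups lay near 0 and near the middle of the scale. The other 2 are at 42603001 of chromosome 17 and, 24075 bases from the LIM homeobox gene lhx2b, at 3066001 of chromosome 8, with 3.48%, 9.07% and 0.651% in G4* and 56.7%, 51.2% and 63.8% in G4+ males at the second.

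**Figure D5:**
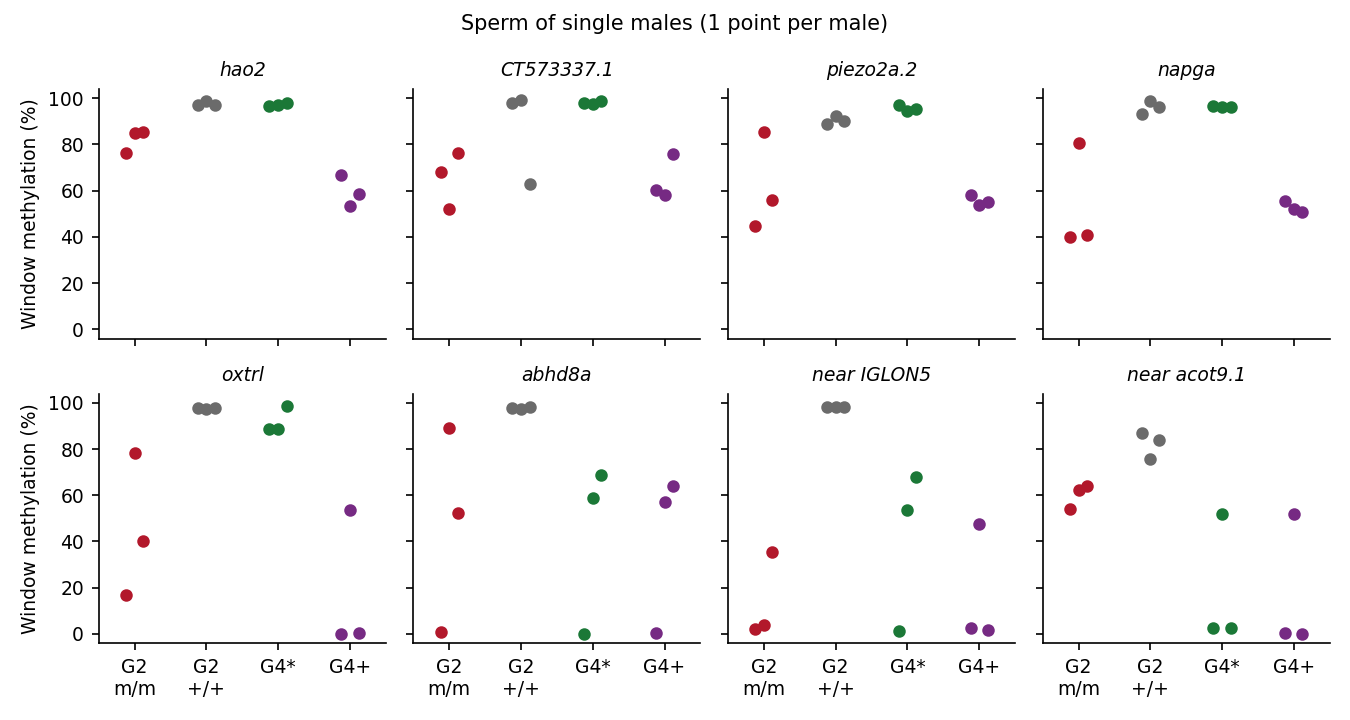
Methylation of 8 dense methylated windows (vertical axis, percent) in sperm of single males of the 4 sperm groups (horizontal axis), 1 point per male, with the 4 windows called between G4* and G4+ males in the upper row and 4 of the least regained windows in the lower row. In the upper row the G4* males lie at 94.6% or more and the G4+ males at 75.8% or less, whereas in the lower row single males lie near 0 or near the middle of the scale.

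Between G4* and G4+ males, limma called 4 dense methylated windows higher in G4*, which is 0.0129% of those tested, against 0.00734% of all tested windows, and 0 lower, against 0.0151%. At an unadjusted p under 0.05, 423 (1.36%) were higher, against 2.63% of all tested windows, and 498 (1.602%) were lower, against 2.96%, and a fit of untransformed ratios called 2 lower. All G4* males lay below all G4+ males in 5.72% of dense methylated windows, against 5.35% of all tested windows, and above in 5.10%, against 4.98%. None of the 4 calls held in fits without any 1 of the 6 males, with 0 called in each.

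The 4 windows had G4* males near the wild-type level and G4+ males near the middle of the scale. At hao2 (chromosome 9, 21345001 to 21346000), a hydroxyacid oxidase gene, the levels were 96.7%, 97.2% and 97.9% in G4* and 66.8%, 53.2% and 58.6% in G4+ males (limma, adjusted p = 0.0299). At piezo2a.2 (chromosome 24, 949001 to 950000), a mechanosensitive ion channel gene, they were 97.3%, 94.6% and 95.4% in G4* and 58.1%, 53.8% and 54.9% in G4+ males (limma, adjusted p = 0.0343). At napga (chromosome 24, 952001 to 953000), which encodes a vesicle fusion adaptor and lies 3 kb further, they were 96.8%, 96.1% and 96.1% in G4* and 55.4%, 52.0% and 50.8% in G4+ males (limma, adjusted p = 0.0195). At CT573337.1 (chromosome 10, 22525001 to 22526000), they were 97.9%, 97.7% and 98.9% in G4* and 60.3%, 58.3% and 75.8% in G4+ males (limma, adjusted p = 0.0483). The 2 neighbours on chromosome 24 are not independent of each other. In G2 sperm, the genotypes did not overlap at hao2, piezo2a.2 and napga, where dnmt1m/m males were lower than dnmt1+/+ males, with differences of group means of −15.5, −28.5 and −42.3 percentage points. The same separation was found in 98.2% of the tested dense methylated and 99.4% of the other windows, so that it does not set these windows apart. At CT573337.1 the G2 males overlapped, with 68.2%, 51.98% and 76.4% in dnmt1m/m, against 98.1%, 99.3% and 62.8% in dnmt1+/+ sperm, so that 1 wild-type male was in the range of the G4+ males. The window of hao2 overlaps no deposited G4 DMR, whereas the other 3 do.

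Of the dense methylated windows, 11 overlapped a deposited G4 DMR, or 0.0318%, against 0.0284% of the other windows. Since the authors chose these DMRs on the same males, their levels are a description. G4* males were lower in 7 of the 11 and higher in 4. Among all G4 DMRs of the paper, too, more were lower than higher in G4* sperm, so that this split is not particular to dense methylated windows. None of the 7 lower windows passed the call by limma, which found 0 dense methylated windows lower. The lower ones include neo1b, the neogenin receptor gene (chromosome 25, 2870001 to 2871000), with 11.7%, 53.7% and 16.1% in G4* and 93.2%, 93.5% and 92.2% in G4+ males. They also include a window 2243 bases from tyrobp (chromosome 16, 25289001 to 25290000), an adaptor gene of myeloid and natural killer cells in mammals, with 62.0%, 67.4% and 64.7% in G4* and 91.4%, 97.1% and 94.9% in G4+ males. A window of chn2, a chimerin gene (chromosome 16, 20559001 to 20560000), had 88.7%, 91.2% and 90.7% in G4* and 97.6%, 98.7% and 96.9% in G4+ males. In addition to CT573337.1, piezo2a.2 and napga, a window listed at a distance of −85045 bases from xpo7 (chromosome 10, 20027001 to 20028000) was higher, with 94.7%, 94.1% and 94.8% in G4* and 64.9%, 69.2% and 68.1% in G4+ males.

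By chromosome, the dense methylated windows of G4* and G4+ males differed most on chromosome 6, which was chosen after the values were seen. Over 1362 windows there, G4* males had medians of 96.3%, 96.4% and 96.7% and G4+ males of 97.02%, 97.1% and 96.8%, with a median difference of −0.427 percentage points. All 3 G4* males lay below all 3 G4+ males. The other windows of chromosome 6 had −0.277. On chromosome 16, all 3 G4* males instead lay above all 3 G4+ males, with a median difference of 0.0432 percentage points in dense methylated windows. Chromosome 1 had −0.320 in dense methylated windows, and the males of the groups overlapped. On chromosome 7, the difference was 0.235 in dense methylated and 0.209 in the other windows, and the males of the groups overlapped there, with 97.1%, 97.1% and 97.1% in G4* and 96.6%, 96.8% and 97.1% in G4+ sperm.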

How the data were processed

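Whole genome bisulfite sequencing of 18 fish was used, in 6 groups of 3, with 36 libraries, 2 per fish, that the authors merged. Per the methods, the authors trimmed reads, mapped them to bisulfite-converted danRer10 with BWA 0.7.12, removed duplicates with Picard 1.136, profiled methylation bias with MethylDackel 0.1.7, counted methylated and unmethylated reads per CpG with methylCtools, and set CpGs of low coverage or with a polymorphism to missing. The deposited values are methylation fractions of single CpGs, given here as percent, with no further normalization and with unknown depth. Low coverage can remove copies of repeated sequence, and polymorphism filters remove single CpGs. The columns of the G4 table are named Ctrl and Pb, which the labels do not use. They were read as G4+ and G4* because a supplementary table of the study heads the same DMR means with these names. The authors' columns of p-values and logit coefficients in the DMR tables were not used, nor were the tables that evaluate DMRs or 12 loci.

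Values were averaged over CpGs valued in all 6 fish of a comparison, in 1-kb windows of a grid from base 1. Windows with at least 5 such CpGs were tested in R 4.3.3 with limma 3.58.1 on logit means (offset 0.01), with only the 6 fish of a comparison in the fit and Benjamini-Hochberg adjustment over all tested windows. A call needed an FDR below 5% together with a difference that reached 20 percentage points. On simulated data, the tests recovered fewer of the changed windows where few windows differed than where many did. Differences between dense methylated and other windows are medians without a test. The windows, gene groups and tests were chosen with earlier results of these data known. Named windows were those with the most CpGs, the largest and the smallest body loss, the least regain and the most regular spacing (6 each), and all called between G4* and G4+. Windows in deposited G4 DMRs, the 6 genes with the most windows and chromosomes 1, 6, 7 and 16 were added after their values were seen. Another logit offset, another minimum of CpGs, levels and differences, ratios without transformation, another grid, a replicate block and the omission of each fish were run as alternatives. No genome of this build was used, so that sequence was not analysed here.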

Additional observations from a re-analysis of the deposited data

How the results depend on the processing

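The smaller loss of dense methylated windows than of the other windows kept its direction under the alternatives run for it, in whole body and in G2 sperm. The median differences between G4 groups and between G4 and G2 males were not recomputed, only their calls. Without a minimum difference, the share of dense methylated windows called lower in dnmt1m/m bodies was 99.1%, and the share called higher than G2 dnmt1m/m sperm was 97.6% in G4+ and 97.5% in G4* sperm. Leaving out each fish gave 49.9% to 51.9% in whole body, 17.2% to 42.8% in G4+ and 17.3% to 43.0% in G4* sperm, with the lowest values without the first G2 mutant male. In whole body, 0 to 1 windows were called higher, the 1 without the third mutant.

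The calls between G4* and G4+ males depended on the processing. Against 4 higher and 0 lower windows, there were 0 higher with an offset of 0.001, 0 to 0 with each male left out, and 0 with at least 50 CpGs. There were 2 higher with a wild-type level of at least 90%, and 7 higher and 6 lower with at least 30 CpGs. A grid shifted by 500 bp gave 1 higher and 1 lower. Untransformed ratios gave 4 higher and 2 lower, and so did a minimum of 10 valued CpGs. The labels do not say that fish of equal number come from the same parent sample. Their deviations correlated between −0.0158 and 0.0468, and the main fits did not pair them. With the replicate number as a block, 0 G4 windows were called higher, 50.8% were called lower in whole body, and 31.2% and 31.5% were called higher in G4+ and G4* than in G2 dnmt1m/m sperm. In the G4 comparison, 6 of 6 males correlated best with their own number, which is a hint from the data only. Whether the G4 males are paired was thus not settled.

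The criterion of density gave 100292 windows at 30 and 13329 at 50 CpGs. The gap between dense methylated and other windows in whole body, 9.21 percentage points, was 8.73 over CpGs valued in all 18 fish and 8.82 with means. With alternatives chosen after seeing the data, it was 6.48 in whole body and 7.35 in G2 sperm (9.53 in the main analysis) at a wild-type body level of 90% to 95%, and 7.05 and 6.94 with at least 10 valued CpGs in both sets. The share regained was 97.2% as a ratio of mean differences. Depth per CpG is unknown, 12831 dense methylated windows could not be tested in whole body, and 30365 dense windows had too few values to be placed.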
